A study of Mus musculus with 9 samples.

Results

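The genes described here encode the matrix metalloproteinases (Mmp), the Adam and Adamts metalloproteinases, and the tissue inhibitors of metalloproteinases (Timp). Members were all genes whose symbol is 1 of these names followed directly by a number and, in some, a letter. The array named 65 of them among 18193 genes: 18 Mmp, 28 Adam, 15 Adamts and 4 Timp genes. Where several probe sets named only that gene, the one with the highest mean over the 9 arrays stood for it. A RefSeq gene table (GRCm38.p6) lists 80 such symbols, and 15 of them, among them Mmp15, Mmp28, Adamts2 and Adamts14, had no such probe set here.

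RNA came from the proximal tibia, from the growth plate, of wild-type Black Swiss mice at birth (age 0 days). Cryosections were cut by hand into round, flat and hypertrophic cell layers, and each layer was taken from each of 3 litters, which gave 3 arrays per layer and 9 in all. A sample pooled 18 to 20 tibiae from 1 litter of 9 to 10 pups, so the spread between arrays is a spread between litters and not between pups. All groups share the strain, genotype and age, and no step separated chondrocytes from other cells of the section, so fewer cells of a type and less RNA per cell cannot be told apart.

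Matrix metalloproteinases are secreted or membrane-bound zinc enzymes that cut collagens, gelatin and other matrix proteins, most of them made as inactive precursors. Many Adam proteins release the outer parts of membrane proteins, others lack a catalytic site and bind partners instead, and Adamts proteins are secreted and cut proteoglycans, procollagens and other matrix proteins. Timp proteins block the active site of these enzymes. In the growth plate the family is known for the breakdown of cartilage matrix at the front where vessels and bone replace it, in which Mmp13 of hypertrophic chondrocytes and bone cells and Mmp9 of osteoclasts take part.

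Values are MAS5 signals, a linear intensity with arbitrary units that was scaled by the authors to the same trimmed mean on every array (500.003, leaving out 2% at each end). Median signals per array were between 123 and 152. Differences between layers are on a log2 scale after adding 26 to each signal, which understates the change of dim genes. A gene was tested where its mean on that scale passed 7.212, the median of all non-control probe sets, and 34 of the 65 members did: 8 Mmp, 10 Adam, 13 Adamts and 3 Timp genes. A difference was called at an adjusted p under 0.05 (limma, with litter as a block, Benjamini-Hochberg over all 11313 genes tested). Adamts20, at 7.231, was just inside the filter, and Mmp8, at 7.179, and Mmp10, at 7.177, were just outside it.

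The labelled layers were checked against cartilage genes. Sox9, the transcription factor of chondrocytes, had mean signals of 1952 in round, 678 in flat and 316 in hypertrophic arrays, and Ucma, a marker of upper-zone chondrocytes, had 1985, 594 and 109. Col10a1, the collagen of hypertrophic chondrocytes, stood highest in the layer of that name. In the same order Prg4 had 15342, 385 and 199, Acan 16500, 7561 and 7139, and Pth1r 1578, 7971 and 12248. None of the 7 genes of this list was highest in the flat layer, so the list holds no marker of that layer. The round array of litter 1 stood apart in RNA integrity: the ratio of 3' to 5' signal was 4.25 for actin there (1.45 to 2.06 elsewhere), and 2.59 for Gapdh (0.922 to 1.28 elsewhere). The flat array of litter 3 had the highest mean log2 level of the skeletal muscle list, 1.52 above the mean of the 9 arrays.

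Among the tested members, Mmp9, Mmp13, Mmp14, Mmp16, Adam8, Adam12 and the inhibitor Timp1 were higher in the hypertrophic layer than in both others, 7 of 34 against 4.19% of all genes. Adam15, Adamts1, Adamts10 and Adamts15 were higher in the round layer than in both others, 4 of 34 against 6.05%. Adam19, Adam22, Adamts4, Adamts18, Mmp9 and Mmp13 were lowest in the round layer, 6 of 34 against 4.80%, and Adam23 was lowest in the hypertrophic layer, 1 of 34 against 2.78%. Mmp9 and Mmp13 rose at each step, as 0.972% of all genes did. An F test over the 3 layers called 18 of the 34 (28.4% of all genes): 5 of 8 Mmp, 7 of 10 Adam, 5 of 13 Adamts and 1 of 3 Timp genes. By limma 0 members were called highest in the flat layer (1.90% of all genes). With both differences at an unadjusted p under 0.05 there were 2, Adam22 and Adamts20, of which Adamts20 passed the filter only by its flat arrays. Adam22 was called highest there without the flat array of litter 3 (hypertrophic minus flat, adjusted p = 0.0138), without the round array of litter 1 (0.0398) and without both (0.00431), and Adamts20 with no mean-variance trend (0.0174 for flat minus round and 0.0327 for hypertrophic minus flat). Likewise limma called 0 members lowest in the flat layer (1.08% of all genes), and 1, Adam10, at an unadjusted p under 0.05. With those 2 arrays left out Adam10 was called lowest there (flat minus round -0.50, adjusted p = 0.0393). Its 2 other probe sets above the filter had the opposite sign for flat minus round on all 9 arrays (0.39 and 1.15). Signals did not overlap between the flat and round arrays for 11 of the 34 members (25.3% of all genes), between the hypertrophic and flat arrays for 13 (22.7%), and between the hypertrophic and round arrays for 22 (36.5%).

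**Figure D1:**
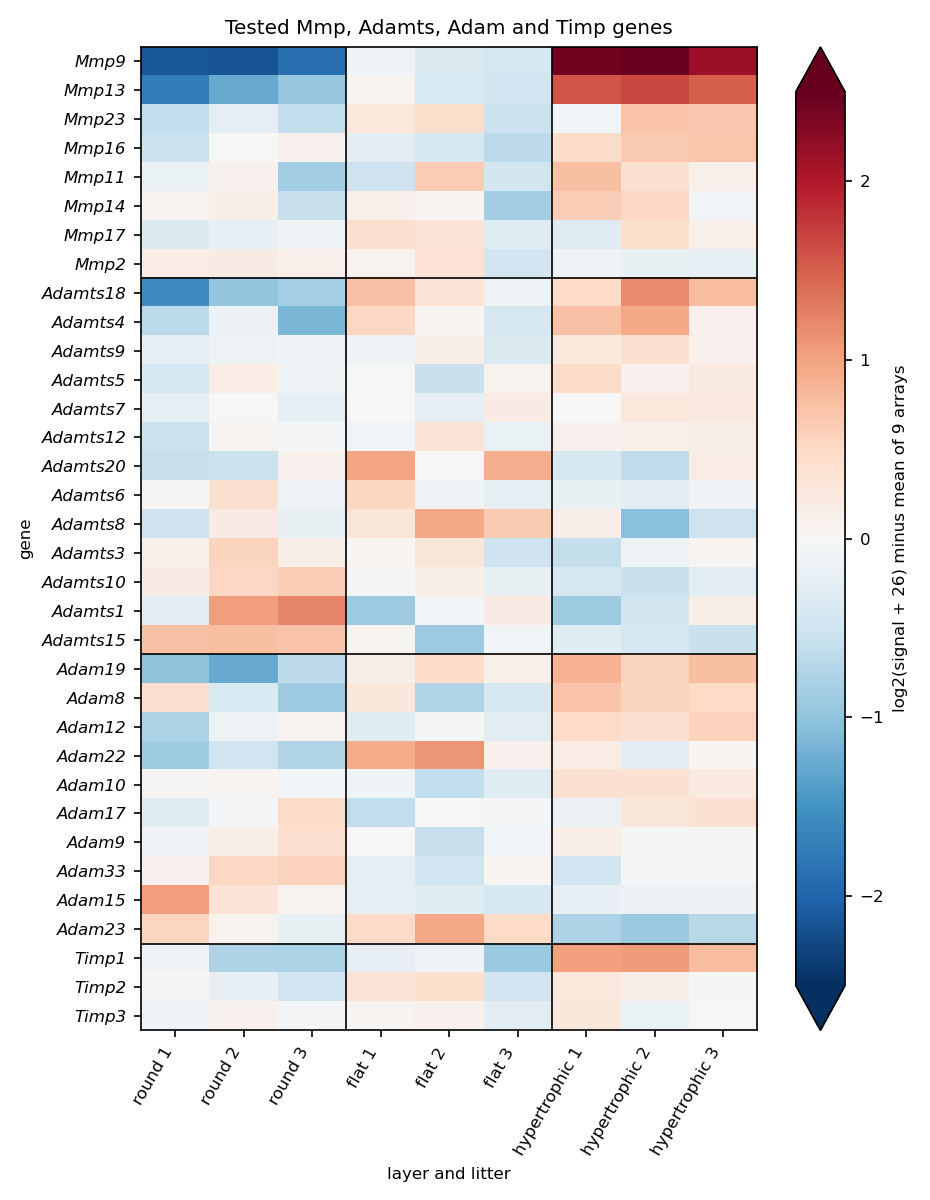
Colour gives log2(signal + 26) minus the gene's mean over the 9 arrays for the 34 tested members (rows, by family) on each array (columns, by layer and litter). Red is above and blue below the mean, and rows for Mmp9 and Mmp13 go from blue in the round to red in the hypertrophic arrays.

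Between the flat and the round layer 10 of 34 tested members were called, 6 higher and 4 lower in the flat layer, where 17.0% of all genes tested were called (8.39% higher and 8.64% lower). From the flat to the hypertrophic layer 9 were called, 8 higher and 1 lower, against 11.3% of all genes (6.12% higher and 5.22% lower). Between the hypertrophic and the round layer 18 were called, 13 higher and 5 lower in the hypertrophic layer, against 25.1% of all genes (12.4% higher and 12.7% lower). The median log2 difference of the 34 members was 0.06, 0.22 and 0.33 in these 3 comparisons, where the median of all genes was between -0.01 and 0.01. Because the comparisons share layers, their counts are not independent of each other.

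Some of these counts rest on single arrays or on the litter block. Without the block, 2 members were called lower in the flat layer than in the round, 5 higher in the hypertrophic than in the flat layer, and 3 lower in the hypertrophic than in the round layer. All genes called moved as well, from 1926 to 935, from 1283 to 553 and from 2840 to 1824 in the 3 comparisons. Their numbers also changed when single arrays were left out. Without the hypertrophic array of litter 3, 7 were called higher than in the round and 5 higher than in the flat layer. The members lower in the flat layer than in the round numbered 2 without the round array of litter 2 or the flat array of litter 1. Those lower in the hypertrophic than in the round layer numbered 3 without the round array of litter 1 or without the hypertrophic array of litter 1 or 2. Those lower in the hypertrophic than in the flat layer numbered 2 without the round array of litter 1, the flat array of litter 3 or the hypertrophic array of litter 1, and 4 without the flat array of litter 3 and the round array of litter 1 together.

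Mmp9, the gelatinase known from osteoclasts and neutrophils, had the smallest p of all 11313 genes in 2 comparisons, hypertrophic against flat and hypertrophic against round. Its signals in litters 1 to 3 were 2176, 2119 and 2542 in the round layer, 8974, 7533 and 7012 in the flat layer, and 50468, 52831 and 41858 in the hypertrophic layer. The 3 layers were fully separated. It rose by 1.77 ± 0.14 (log2, SE; 3.40-fold; adjusted p = 7.86e-06) from round to flat and by 2.62 ± 0.14 (6.16-fold; adjusted p = 2.36e-06) from flat to hypertrophic. The hypertrophic layer stood 21.0-fold above the round layer (log2 4.39, adjusted p = 5.08e-09). A second probe set of the gene gave log2 differences of 1.70, 3.31 and 5.01 in the same order.

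Mmp13, collagenase 3, which cuts fibrillar collagen II, took the same course with smaller steps. In litters 1 to 3 it was at 3499, 4836 and 6079 in the round layer, 12278, 8977 and 8389 in the flat layer, and 34750, 37012 and 32723 in the hypertrophic layer. No array of 1 layer overlapped with those of another. The log2 differences were 1.05 ± 0.20 (adjusted p = 0.00273), 1.83 ± 0.20 (adjusted p = 0.000133) and 2.89 ± 0.20 (adjusted p = 6.68e-07), or 2.07-, 3.56- and 7.39-fold. All 3 calls of Mmp9 and of Mmp13 were kept under each of the 19 alternatives.

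Marker genes of other cells also differed between layers, though not all in the same direction. Of 9 tested osteoclast markers, 5 were higher in the flat layer than in the round, 8 higher in the hypertrophic than in the flat layer, and 9 higher in the hypertrophic than in the round layer. The summed signal of the 10 osteoclast genes on the array was 3873 to 4513 in round, 6628 to 11021 in flat and 33124 to 46673 in hypertrophic arrays. Acp5, the acid phosphatase that defines these cells, had mean signals of 1090, 2870 and 23336, and Calcr, the calcitonin receptor, 32.2, 119 and 265. Calcr was the 1 gene of the 10 below the filter. Of 5 tested neutrophil and myeloid precursor genes, 4 were higher in the flat layer than in the round and 5 higher in the hypertrophic than in the round layer. The summed signal of the 8 genes of that list on the array was 2329 to 3238, 4876 to 11738 and 7092 to 16659. Osteoblast genes also moved: 4 of 5 tested were higher in the flat and 4 higher in the hypertrophic than in the round layer, and the mean log2 level of the list ran from -1.78 to -1.70 in round, -0.41 to 0.58 in flat and 1.34 to 1.72 in hypertrophic arrays. Their summed signals, 64153 to 89733, 71328.5 to 117874 and 112617 to 132664, overlapped between layers. Col1a1, the brightest of them, was not called and had mean signals of 72528, 77576 and 68816. Of 10 endothelial genes 6 were higher in the hypertrophic than in the flat layer, with summed signals of 12853 to 15343, 10557 to 13151 and 17208 to 18145 from round to hypertrophic arrays. Of 8 genes of perichondrium and tendon, 4 were lower and 1, Mfap5, higher in flat than in round arrays and 6 were lower in hypertrophic than in round arrays, with summed signals of 100878 to 117931, 72780 to 87974 and 47419 to 53815. The part of these cells in the signals of Mmp9, Mmp13 and the other members that differed between layers was not tested.

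**Figure D2:**
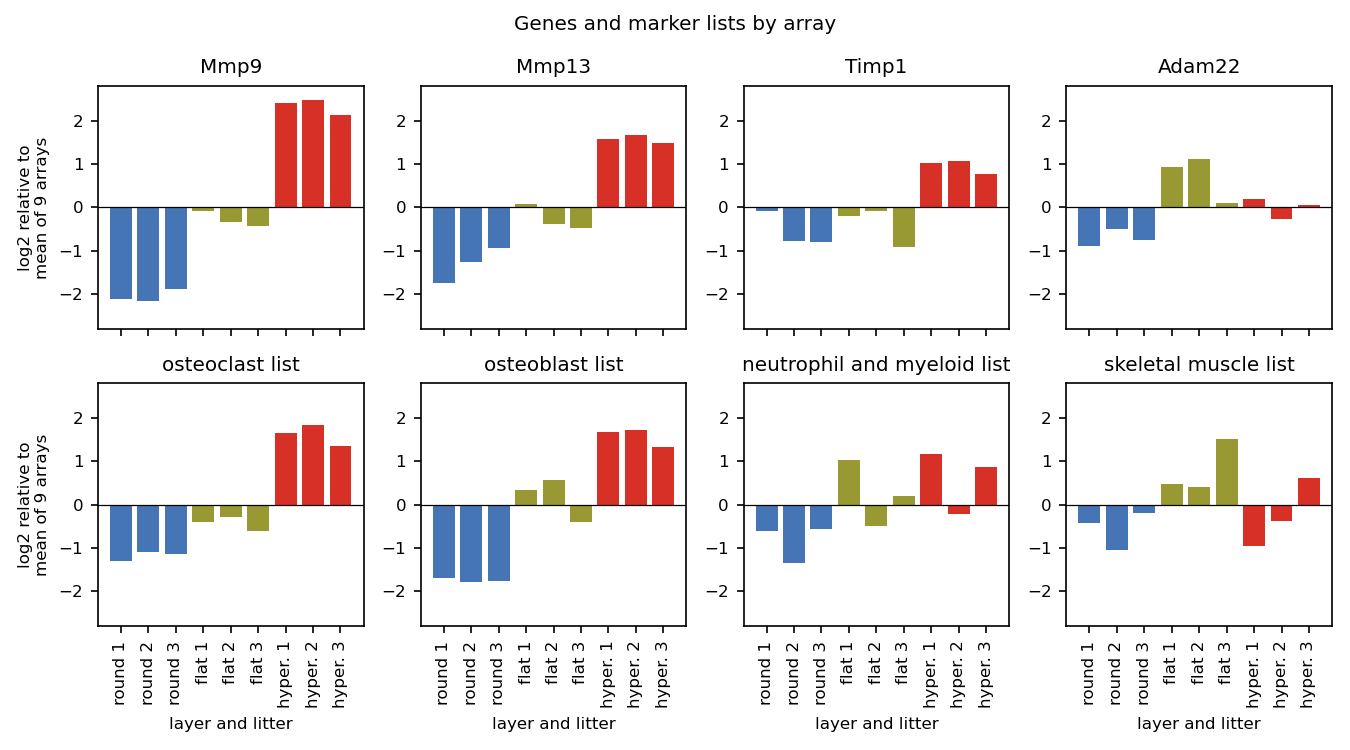
Bars give the log2 level of Mmp9, Mmp13, Timp1 and Adam22 (top) and the mean log2 level of 4 marker lists (bottom) on each of the 9 arrays, relative to the mean of the 9 arrays, coloured by layer. Mmp9, Mmp13 and the osteoclast and osteoblast lists are lowest in the round arrays and highest in the hypertrophic arrays, while the skeletal muscle list is highest in the flat array of litter 3.

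Mmp13 lies in a run of 10 neighbouring Mmp genes on chromosome 9 with 0 other coding genes between them, in the order Mmp13, Mmp12, Mmp1b, Mmp3, Mmp1a, Mmp10, Mmp8, Mmp27, Mmp20 and Mmp7. Of these, 9 were measured and only Mmp13 passed the filter. Upstream sequence is shown for Mmp13 and for the 4 neighbours called between layers when all 18193 genes were tested. The 5 stretches are the 250 bases before the start of each gene, from RefSeq on GRCm38.p6, plus strand, at chr9:7272264-7272513 for Mmp13, chr9:7502092-7502341 for Mmp10, chr9:7627981-7628230 for Mmp20, chr9:7445572-7445821 for Mmp3 and chr9:7558179-7558428 for Mmp8. Capitals mark matches to the AP-1 motif TGANTCA, which is its own reverse complement at the fixed bases, and in Mmp13 also to the Runx motif, searched as TGTGGT or ACCACA. The stretch of Mmp8 holds neither.
Mmp13: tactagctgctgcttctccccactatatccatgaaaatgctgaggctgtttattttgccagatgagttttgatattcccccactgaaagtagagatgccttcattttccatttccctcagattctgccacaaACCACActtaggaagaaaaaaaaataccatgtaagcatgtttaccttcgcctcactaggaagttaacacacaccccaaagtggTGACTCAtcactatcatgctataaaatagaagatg
Mmp10: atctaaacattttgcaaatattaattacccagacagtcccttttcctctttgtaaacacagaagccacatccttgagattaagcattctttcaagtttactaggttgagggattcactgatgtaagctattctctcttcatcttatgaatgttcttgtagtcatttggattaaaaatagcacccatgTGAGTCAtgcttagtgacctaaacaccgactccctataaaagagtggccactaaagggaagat
Mmp20: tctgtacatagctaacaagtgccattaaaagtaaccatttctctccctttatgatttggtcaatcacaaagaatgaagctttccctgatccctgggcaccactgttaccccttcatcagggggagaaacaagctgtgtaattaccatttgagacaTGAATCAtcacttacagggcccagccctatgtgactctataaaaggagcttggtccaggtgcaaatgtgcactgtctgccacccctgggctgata
Mmp3: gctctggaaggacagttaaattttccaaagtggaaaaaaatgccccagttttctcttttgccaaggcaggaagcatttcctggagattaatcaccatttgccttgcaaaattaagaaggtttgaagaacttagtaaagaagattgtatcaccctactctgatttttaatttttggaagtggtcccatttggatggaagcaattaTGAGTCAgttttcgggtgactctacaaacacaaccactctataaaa
Mmp8: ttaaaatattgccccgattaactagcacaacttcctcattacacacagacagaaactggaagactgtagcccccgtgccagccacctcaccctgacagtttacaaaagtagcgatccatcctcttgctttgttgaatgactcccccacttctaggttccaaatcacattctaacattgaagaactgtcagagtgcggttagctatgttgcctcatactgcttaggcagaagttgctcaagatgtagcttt

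The AP-1 match ended 29 bases before the start in Mmp13, 57 in Mmp10, 89 in Mmp20 and 40 in Mmp3. In the 250 bases before the start, 8 of the 10 genes of the run held such a match, the exceptions being Mmp8 and Mmp27. Among all members with a promoter in the table it was 10 of 37 (27.0%), and among all 27025 genes with one 7.82%, or 6.75% of 32851 promoters. The members outside the run with a match were Adam19 and Adam25. The Runx motif was in 4 of the 10 genes of the run, in 9 of 37 members (24.3%) and in 15.9% of all genes (14.0% of promoters). Neither motif contains the other, and a match describes the letters of the window and not the binding of a factor.

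The measured neighbours of Mmp13 were dim. Mmp10, stromelysin 2, was at 78.6, 84.0 and 49.6 in the round layer, 6.35, 94.4 and 55.6 in the flat layer and 336, 488 and 516 in the hypertrophic layer, where every array was above all others. When all 18193 genes were tested it was 2.77 ± 0.42 higher (log2; adjusted p = 0.00164) than in the flat and 2.29 higher (adjusted p = 0.00225) than in the round layer. Mmp20, enamelysin, had signals of 3.04 to 7.82, 6.88 to 24.6 and 55.8 to 97.0 and was 1.71 ± 0.40 higher in the hypertrophic than in the round layer (adjusted p = 0.0115). Mmp8, the collagenase known from neutrophils, had 18.5 to 85.6, 101 to 157 and 174 to 250, with a difference of 1.52 ± 0.42 (adjusted p = 0.0279). Mmp3, stromelysin 1, ran the other way: 174 to 269 in round, 14.5 to 158 in flat and 36.0 to 97.2 in hypertrophic arrays, with hypertrophic minus round at -1.37 ± 0.41 (adjusted p = 0.039). These genes missed the filter and were singled out after their values were seen. Mmp12, Mmp1b, Mmp1a and Mmp7 had signals between 2.88 and 124 on all arrays, and the near-identical Mmp1a and Mmp1b may share signal.

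**Figure D3:**
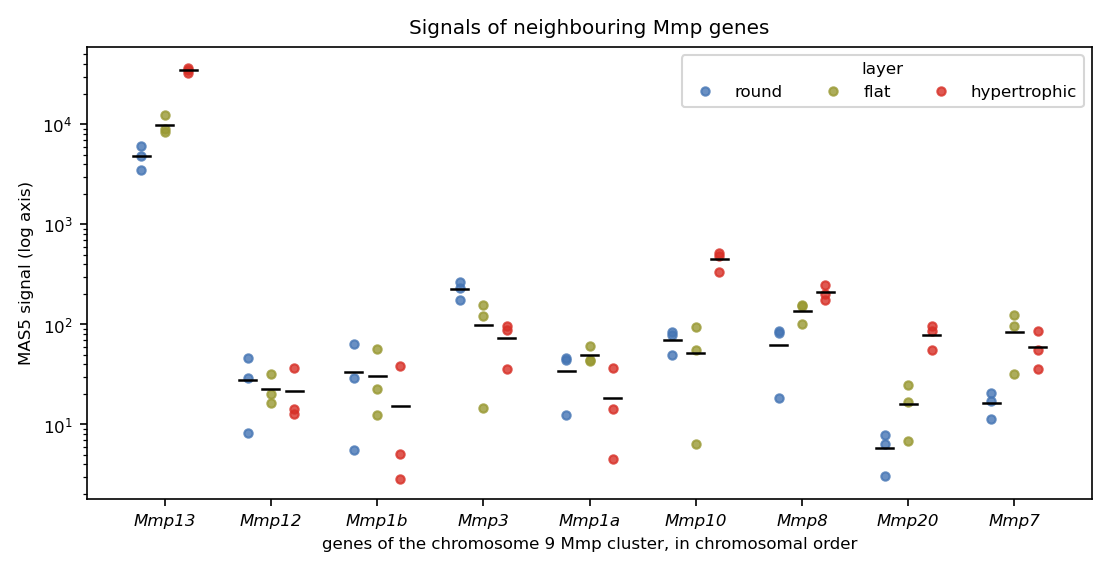
Points give the MAS5 signal (log axis) of the 9 measured genes of the chromosome 9 run, in chromosomal order, on the 3 arrays of each layer, with a black bar at each layer's mean. Mmp13, Mmp10 and Mmp20 are highest in the hypertrophic arrays and Mmp3 is highest in the round arrays, and different probe sets' levels are not comparable with each other.

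Among the membrane-type enzymes, Mmp14 and Mmp16 rose in the hypertrophic layer. Mmp14, which activates the Mmp2 precursor at the cell surface, was at 11812, 12598 and 7546 in the round layer, 12304, 11642 and 6130 in the flat layer and 17245, 16135 and 10675 in the hypertrophic layer. The layers overlapped, and in every layer the array of litter 3 was the lowest. With litter as a block Mmp14 was 0.58 ± 0.12 above the flat (adjusted p = 0.00753) and 0.47 ± 0.12 above the round layer (adjusted p = 0.012). Without the block these were adjusted p = 0.311 and 0.308, and without the hypertrophic array of litter 3 they were 0.0685 and 0.0904. Mmp16 was at 516, 762 and 825 in the round layer, 619, 554 and 478 in the flat layer and 1065, 1223 and 1258 in the hypertrophic layer, where no array overlapped with the others. It was 1.07 ± 0.18 above the flat (adjusted p = 0.00277) and 0.76 ± 0.18 above the round layer (adjusted p = 0.00983). The second of these calls was lost without the hypertrophic array of litter 3 (adjusted p = 0.0534) and with the mean of all probe sets of the gene (adjusted p = 0.121). For that difference the 2 other probe sets of Mmp16 above the filter gave 0.02 and 0.43.

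Mmp23, a type II membrane enzyme, had signals of 454, 595 and 457 in the round layer, 854, 966 and 480 in the flat layer and 678, 1172 and 1141 in the hypertrophic layer. Hypertrophic and round arrays did not overlap, and the difference was 0.92 ± 0.23 (adjusted p = 0.0109). The call was lost without the round array of litter 2 (adjusted p = 0.0522) or the hypertrophic array of litter 3 (adjusted p = 0.0893). Mmp2, the other gelatinase, was at 13402 to 14116 in round, 8822 to 15716 in flat and 10602 to 11460 in hypertrophic arrays, with no call (smallest adjusted p = 0.126). Its lowest signal was that of the flat array of litter 3. With that array and the round array of litter 1 left out, Mmp2 was lower in the hypertrophic layer than in the flat (log2 -0.37, adjusted p = 0.0325) and in the round layer (log2 -0.32, adjusted p = 0.0356). Without the flat array of litter 3 alone the difference from the round layer was -0.34 (adjusted p = 0.0494). On all 9 arrays the probe set used gave -0.15 for hypertrophic minus flat and -0.34 for hypertrophic minus round. Another bright probe set of Mmp2 gave 0.12 and -0.13. Mmp11 and Mmp17 were not called (smallest adjusted p = 0.0614 and 0.443). Mmp11 was called higher in the hypertrophic than in the round layer without the flat array of litter 1 (adjusted p = 0.0381) or 2 (0.047). The same held without the hypertrophic array of litter 2 (adjusted p = 0.0278).

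Timp1 was the only tested inhibitor that passed the test. Its signals were 4005, 2487 and 2443 in the round layer, 3692, 4005 and 2235 in the flat layer and 8662, 8980 and 7239 in the hypertrophic layer. The hypertrophic arrays lay above all others, while the round and flat arrays overlapped. It was 1.36 ± 0.17 (2.56-fold, adjusted p = 0.000301) above the flat and 2.83-fold (log2 SE 0.17, adjusted p = 3.53e-05) above the round layer, and both calls were kept under all 19 alternatives. Without the flat array of litter 3 and the round array of litter 1, Timp1 was also higher in the flat layer than in the round (log2 0.57, adjusted p = 0.0111).

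Timp2, which also takes part in the activation of Mmp2 by Mmp14, was at 10763, 9145 and 7452 in the round layer, 13410, 14259 and 7597 in the flat layer and 12770, 11806 and 10203 in the hypertrophic layer. The layers overlapped, and it was not called (smallest adjusted p = 0.0858). It was called higher than in the round layer without the flat array of litter 3, in the flat layer (log2 0.50, adjusted p = 0.0301) and in the hypertrophic layer (log2 0.36, adjusted p = 0.039). Its probe sets disagreed: for the hypertrophic minus the round layer the one used gave 0.36 and the 4 others above the filter gave -0.56, -0.48, -0.16 and 0.50. Timp3, the inhibitor that binds to the matrix, lay between 2120 and 3118 on all 9 arrays (smallest adjusted p = 0.821). Timp4 was below the filter, at 10.5 to 144.

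**Figure D4:**
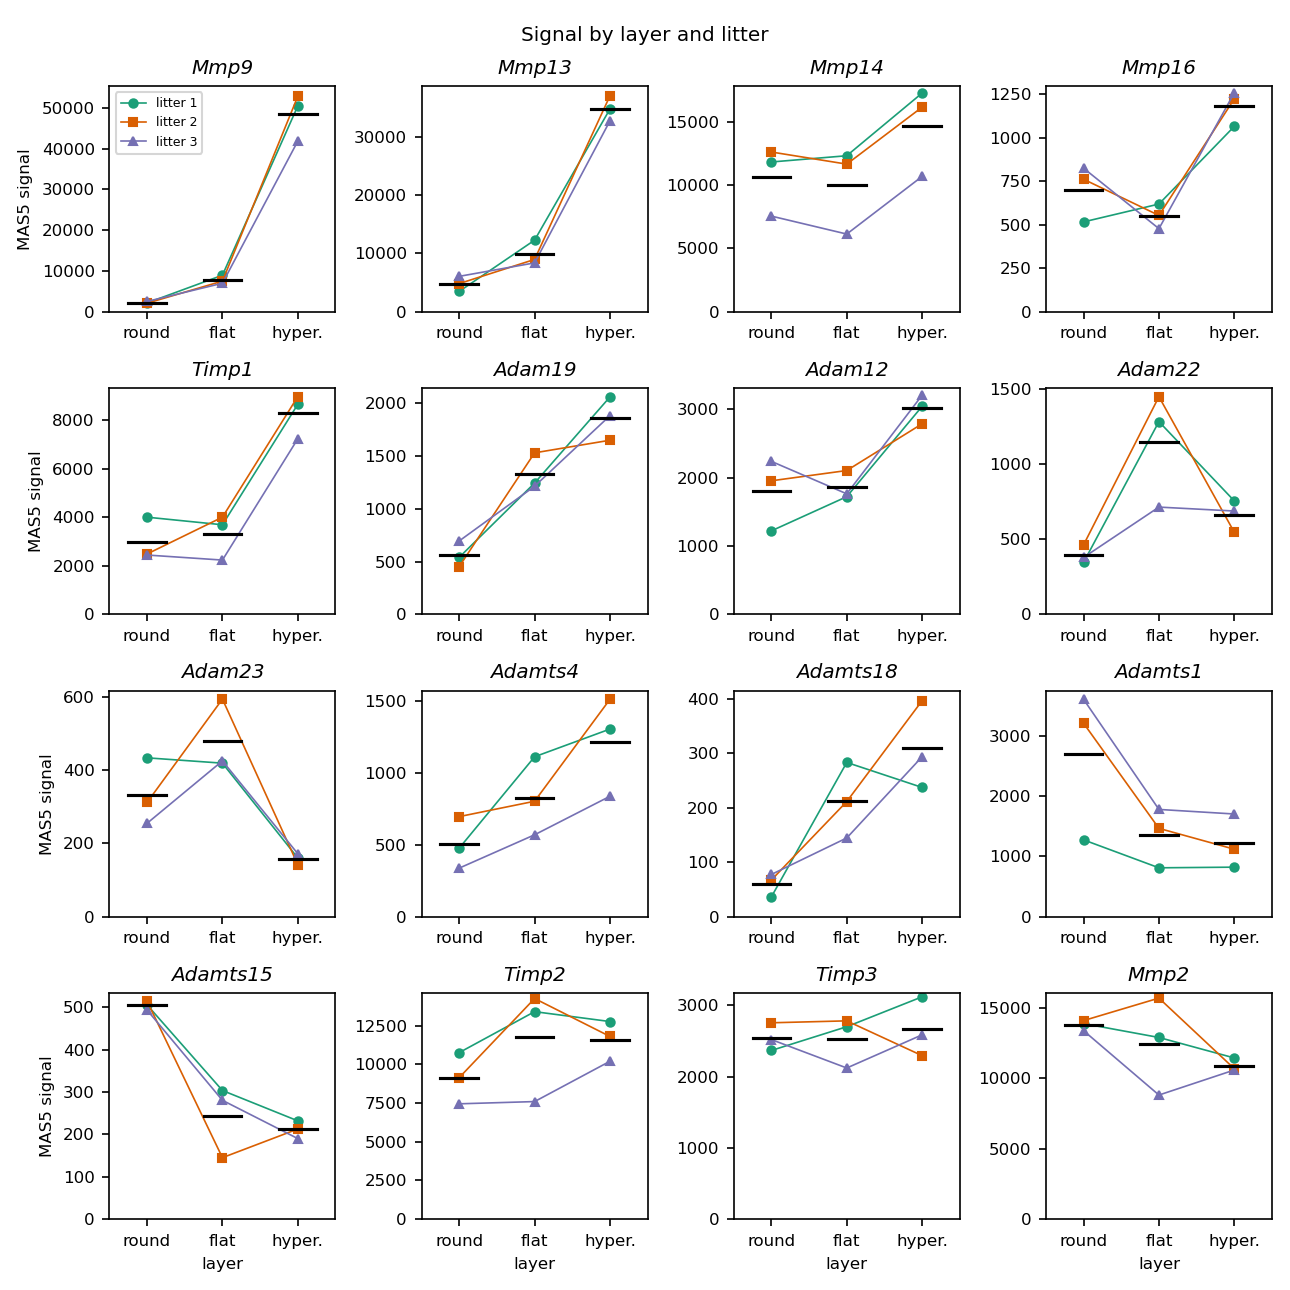
Each panel plots the MAS5 signal (linear axis from 0) of 1 gene in the 3 layers, with the arrays of each litter joined and a black bar at the layer mean of 3 arrays. Mmp9, Mmp13, Mmp16 and Timp1 have all hypertrophic arrays above all others, Adam23 has them below, and Adamts1 is lowest in litter 1 in every layer.

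Of the 10 tested Adam genes, 2 rose and 1 fell from the round to the flat layer, where 8.39% of all genes rose and 8.64% fell. Adam19, a sheddase of neuregulins, was at 539, 452 and 695 in the round layer, 1243, 1530 and 1213 in the flat layer and 2060, 1649 and 1883 in the hypertrophic layer. The layers did not overlap. It was 1.22 ± 0.18 (adjusted p = 0.000467) above the round layer in the flat and 1.70 ± 0.18 (3.25-fold, adjusted p = 1.87e-05) in the hypertrophic layer, and both calls were kept under all alternatives. The step from flat to hypertrophic did not pass (adjusted p = 0.104). It was called with arrays centred on their medians (adjusted p = 0.0493) and without the flat array of litter 2 (0.0307).

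Adam12, a gene of mesenchymal and muscle precursor cells, was at 1221, 1955 and 2239 in the round layer, 1722, 2105 and 1764 in the flat layer and 3045, 2790 and 3208 in the hypertrophic layer. All hypertrophic arrays were above all others. The difference was 0.77 ± 0.17 from the round layer (adjusted p = 0.00582) and 0.69 ± 0.17 from the flat layer (adjusted p = 0.0218). The call against the flat layer was lost without the block (adjusted p = 0.0855), with no mean-variance trend (0.0731), without the flat array of litter 1 (0.06) or 3 (0.113), and without the hypertrophic array of litter 1 (0.154) or 3 (0.0836). Adam8, known from myeloid cells and osteoclasts, was at 382, 214 and 139 in the round layer, 350, 158 and 208 in the flat layer and 482, 430 and 415 in the hypertrophic layer, again with no overlap. Its differences were 0.89 ± 0.26 from the round (adjusted p = 0.0234) and 0.88 ± 0.26 from the flat layer (adjusted p = 0.0437). The call against the flat layer was lost without the block (adjusted p = 0.189) and without any of the 3 flat arrays, the round array of litter 2 or the hypertrophic array of litter 2 or 3 (adjusted p 0.0543 to 0.216). It was also lost with no filter on low values (adjusted p = 0.0913) and with no mean-variance trend (0.05295). The call against the round layer was lost without the block (adjusted p = 0.1), with no filter on low values (0.0502), and without the hypertrophic array of litter 2 or 3 or the round array of litter 3 (adjusted p 0.124 to 0.132). Between the hypertrophic and the round layer 12.4% of all genes were higher and 12.7% lower. Macrophage genes were called higher in the hypertrophic than in the round layer in 4 of 10 cases and lower in 1. The median log2 difference of the list was 0.09. Their summed signals were 13149 to 14146 in the round and 21361 to 26379 in the hypertrophic arrays. Within that sum Csf1r had mean signals of 4732 and 13322, and Mrc1, the gene called lower, 2166 and 1069. The part of macrophages in Adam8 was not tested.

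Adam10, the sheddase of Notch receptors and cadherins, was at 4405, 4520 and 4111 in the round layer, 3990, 2831 and 3487 in the flat layer and 5623, 5678 and 5161 in the hypertrophic layer. On this probe set the 3 layers did not overlap, with the flat arrays lowest. The 2 other probe sets of Adam10 above the filter gave 0.39 and 1.15 for the flat minus the round layer. For the hypertrophic minus the flat layer they gave 0.51 and 0.005. The rise from flat to hypertrophic, 0.68 ± 0.13 (adjusted p = 0.00574), was the only call. It was lost without the hypertrophic array of litter 2 (adjusted p = 0.0553) and with the mean of all probe sets of the gene (adjusted p = 0.565). Without both arrays that stood apart Adam10 was also lower in the flat layer than in the round (log2 -0.50, adjusted p = 0.0393). Without the flat array of litter 2 it was higher in the hypertrophic than in the round layer (log2 0.33, adjusted p = 0.0438). Adam17, which releases Tnf and ligands of the Egf receptor, and Adam9 had no call (smallest adjusted p = 0.104 and 0.14), with signals of 845 to 1814 and 1253 to 2547 on the 9 arrays. Without the flat array of litter 3 and the round array of litter 1, Adam9 was lower in the flat layer than in the round (log2 -0.68, adjusted p = 0.0108).

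Adam15, an enzyme with an integrin-binding site, fell from 2867, 1741 and 1452 in the round layer to 1156, 1111 and 999 in the flat layer, and was at 1183, 1240 and 1233 in the hypertrophic layer. Every round array was above all others, and the round array of litter 1 was the highest. The differences from the round layer were -0.82 ± 0.18 in the flat (adjusted p = 0.00795) and -0.66 ± 0.18 in the hypertrophic layer (adjusted p = 0.0186). The call for the flat layer was lost without the flat array of litter 1 (adjusted p = 0.0543) and without both arrays that stood apart (0.0614). The call for the hypertrophic layer was lost without the block (adjusted p = 0.058), with no mean-variance trend (0.0516), without the round array of litter 1 (0.0713), without the hypertrophic array of litter 1 (0.128) or 2 (0.0594), and without both arrays that stood apart (0.0628). Another probe set of Adam15 gave 0.01 for the hypertrophic minus the round layer.

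Adam22 and Adam23, which lack a catalytic site and are best known as receptors at synapses, differed between layers in other ways. Adam22 was at 345, 461 and 378 in the round layer, 1281, 1447 and 713 in the flat layer and 754, 545 and 686 in the hypertrophic layer, with the round arrays below all others. It was 1.43 ± 0.23 higher in the flat (adjusted p = 0.001) and 0.71 ± 0.23 higher in the hypertrophic (adjusted p = 0.0398) than in the round layer. The second of these calls was lost without the block (adjusted p = 0.0779), without the round array of litter 1 (0.153) or 2 (0.0765), without the flat array of litter 1 (0.0534), without the hypertrophic array of litter 1 (0.156) or 3 (0.216), and with the mean of all probe sets of the gene (0.379). It was also lost with no filter on low values (adjusted p = 0.0582) and with no mean-variance trend (0.07945). Adam22 was lower in the hypertrophic than in the flat layer without the flat array of litter 3 (adjusted p = 0.0138), without the round array of litter 1 (0.0398) or without both (0.00431). Of all genes 8.39% were higher in the flat layer than in the round, and 5.22% fell from flat to hypertrophic. All 12 skeletal muscle genes were higher in the flat layer than in the round and lower in the hypertrophic than in the flat layer. Their summed signal was 107596 to 175202 in round, 260269 to 451675 in flat and 105192 to 263892 in hypertrophic arrays. Of the flat arrays, that of litter 3 had the highest muscle level and the lowest Adam22 signal, and the part of muscle in the Adam22 signal was not tested. Adam23 was at 433, 312 and 255 in the round layer, 419, 594 and 425 in the flat layer and 160, 142 and 172 in the hypertrophic layer, where every array was below all others. It fell by 1.44 ± 0.24 from flat to hypertrophic (adjusted p = 0.00235) and was 0.94 ± 0.24 lower than in the round layer (log2 -0.94, adjusted p = 0.0132). The difference from the round layer was not called without the round array of litter 1 (adjusted p = 0.07), without the hypertrophic array of litter 1 (0.0554) or 2 (0.0764), or without both arrays that stood apart (0.0908).

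The 7 Adamts genes known to cut proteoglycans, Adamts1, 4, 5, 8, 9, 15 and 20, were all tested, and calls went in both directions. Against the round layer, Adamts4 rose and Adamts1 and Adamts15 fell in both other layers, and Adamts9 rose in the hypertrophic layer. None of the 13 tested Adamts genes was called between the flat and the hypertrophic layer by limma, a count of 0 beside 11.3% of all genes, with 2 higher and 3 lower at an unadjusted p under 0.05. Without the arrays that stood apart, Adamts4 (log2 0.60, adjusted p = 0.0466), Adamts5 (0.61, adjusted p = 0.0383) and Adamts10 (-0.53, adjusted p = 0.0217) were called there. Adamts8 was called there without the hypertrophic array of litter 1 (log2 -1.59, adjusted p = 0.0335).

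Adamts4, aggrecanase 1, was at 476, 696 and 337 in the round layer, 1112, 802 and 569 in the flat layer and 1304, 1511 and 837 in the hypertrophic layer. Litter 3 was lowest in every layer, and hypertrophic and round arrays did not overlap. It was 0.70 ± 0.18 higher in the flat (adjusted p = 0.0197) and 1.25 ± 0.18 higher in the hypertrophic (2.37-fold, adjusted p = 0.000299) than in the round layer. The second call was kept under all alternatives. The first was lost without the block (adjusted p = 0.193), without the flat array of litter 1 (0.136) or 3 (0.0636), without the round array of litter 1 (0.0734) or 3 (0.0526), and without both arrays that stood apart (0.184). Adamts5, aggrecanase 2, was at 531 to 820 in round, 478 to 758 in flat and 770 to 986 in hypertrophic arrays and was not called (smallest adjusted p = 0.232).

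Adamts1, which cuts versican and aggrecan, was at 1277, 3215 and 3613 in the round layer, 812, 1467 and 1782 in the flat layer and 823, 1121 and 1706 in the hypertrophic layer. Litter 1 was lowest in every layer, the layers overlapped between litters, and within each litter the round array was the highest. With litter as a block it fell by 0.92 ± 0.16 in the flat (adjusted p = 0.00173) and by 1.06 ± 0.16 in the hypertrophic layer (2.09-fold, adjusted p = 0.00041). Without the block the adjusted p was 0.186 and 0.0909. Adamts15, another proteoglycan-cutting enzyme, was at 506, 515 and 494 in the round layer, 303, 145 and 280 in the flat layer and 232, 213 and 190 in the hypertrophic layer. Every round array was above all others. It was lower by 1.04 ± 0.24 in the flat (log2 -1.04, adjusted p = 0.0115) and by 1.16 ± 0.24 in the hypertrophic layer (log2 -1.16, adjusted p = 0.00411). The call in the flat layer was lost without the flat array of litter 2 (adjusted p = 0.054) or the round array of litter 2 (0.0824).

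Adamts9, a versicanase, was at 1387 to 1543 in round, 1275 to 1854 in flat and 1788 to 2192 in hypertrophic arrays. Its call against the round layer, 0.41 ± 0.14 (adjusted p = 0.0463), was among the least stable. It was lost without the block (adjusted p = 0.118) and without the round array of litter 1 or 2, the flat array of litter 1 or any of the 3 hypertrophic arrays (adjusted p 0.0671 to 0.217). Quantile normalization (adjusted p = 0.0589), no filter on low values (0.0526) and no mean-variance trend (0.0872) also lost it.

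Of the remaining Adamts genes, Adamts18 and Adamts10 were called in opposite directions. Adamts18 was at 36.3, 67.3 and 77.5 in the round layer, 283, 211 and 144 in the flat layer and 237, 397 and 294 in the hypertrophic layer, with the round arrays below all others. It was 1.46 ± 0.34 higher in the flat (adjusted p = 0.00993) and 1.96 ± 0.34 higher in the hypertrophic layer (adjusted p = 0.00101). The first call was lost without the flat array of litter 1 (adjusted p = 0.0822). Adamts18 passed the filter by its flat and hypertrophic arrays, so these calls are not independent of the filter. Both were kept with no filter on low values. Adamts10, known to act on fibrillin microfibrils, was at 1749, 2189 and 2338 in the round layer, 1451, 1697 and 1321 in the flat layer and 1122, 1019 and 1231 in the hypertrophic layer, with no overlap between layers. It was lower by 0.87 ± 0.15 in the hypertrophic than in the round layer (log2 -0.87, adjusted p = 0.00119). With the mean of its probe sets the adjusted p was 0.213. Its fall in the flat layer, -0.48 ± 0.15 (adjusted p = 0.0498), lay at the threshold and was lost in 14 of 19 alternatives. These included no block (adjusted p = 0.1) and leaving out any array but the round array of litter 1 or the flat array of litter 2 (adjusted p 0.0572 to 0.239). Adamts3, which trims procollagen II, and the Comp-cutting enzymes Adamts7 and Adamts12 were not called (smallest adjusted p = 0.0963, 0.388 and 0.195). Adamts3 was called lower in the hypertrophic than in the round layer without the flat (adjusted p = 0.0455) or hypertrophic array (0.0169) of litter 3.

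**Figure D5:**
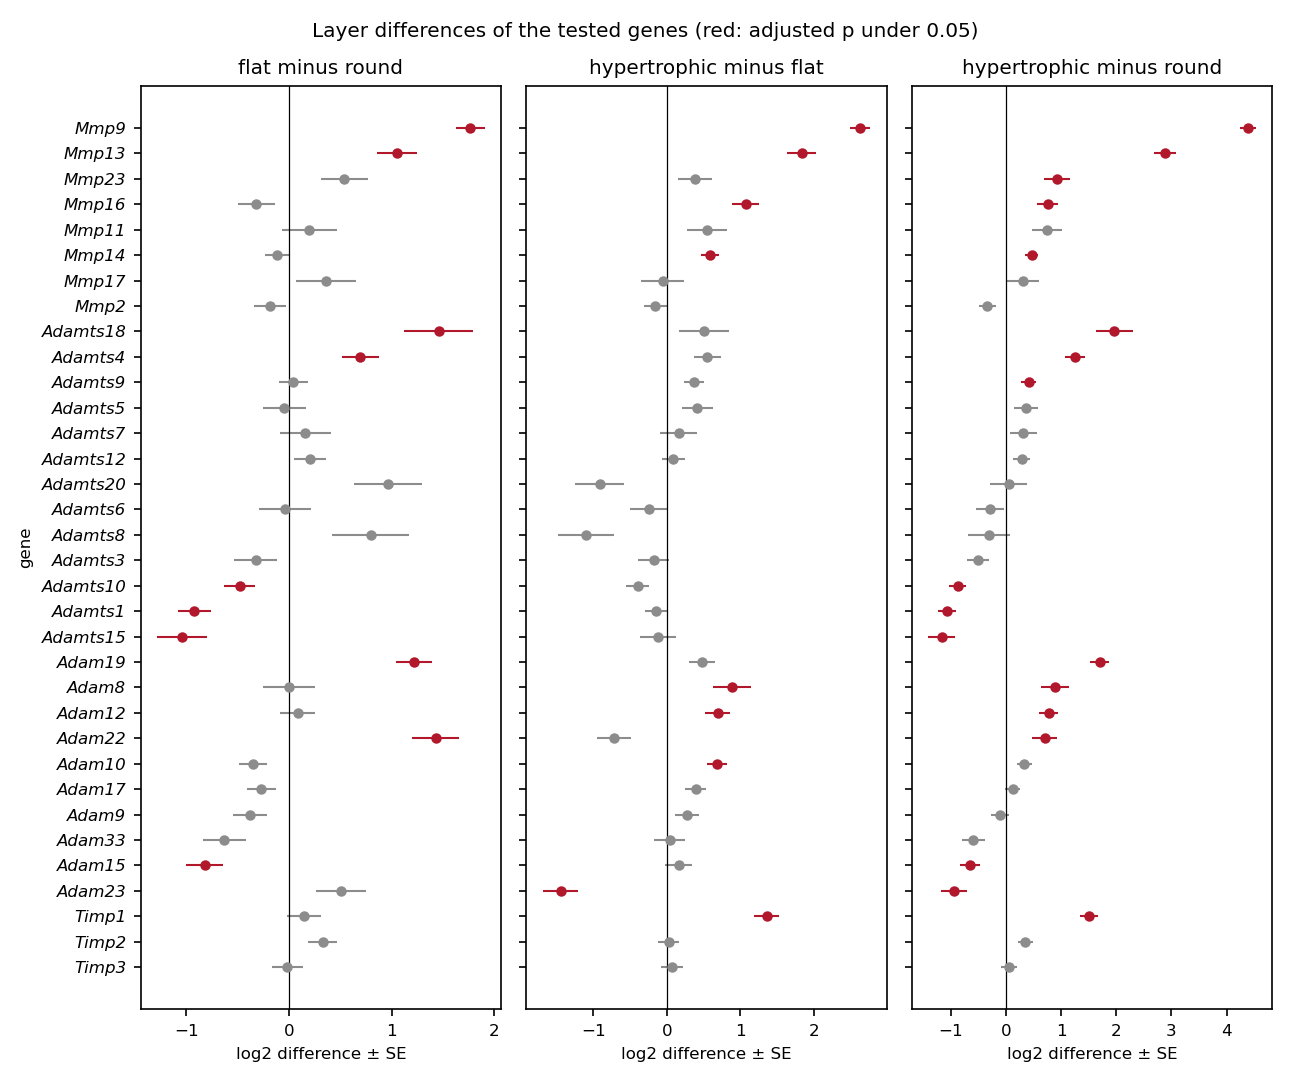
Points give the log2 difference with its SE for the 34 tested members in the 3 comparisons, red where the adjusted p was under 0.05 and grey otherwise. Red points lie mostly right of 0 in the comparisons with the hypertrophic layer, 8 of 9 against flat and 13 of 18 against round.

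The 31 members below the filter were 10 Mmp, 18 Adam, 2 Adamts and 1 Timp genes. The 18 Adam genes, many of them known from testis and sperm, lay between 1.77 and 188 on all arrays. They include the neighbouring Adam18, Adam3, Adam5 and Adam32 on chromosome 8, where 1 of the 5 genes of the run, Adam9, passed the filter. Adam1a and Adam1b, and Adam6a and Adam6b, are near copies of each other whose signals may be mixed. Adamts16, singled out after its values were seen, was at 299, 303 and 264 in the round layer, 101, 129 and 5.19 in the flat layer and 19.6, 98.9 and 23.6 in the hypertrophic layer. With all 18193 genes tested, its log2 difference from the round layer was -1.89 ± 0.48 in the flat (adjusted p = 0.0259) and -2.26 ± 0.48 in the hypertrophic layer (adjusted p = 0.00634). Another probe set of Adamts16, also below the filter, did not show this fall. It gave 0.30 for the flat and 0.01 for the hypertrophic minus the round layer.

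Over the members, 37 differences were called in 19 genes, and 17 of the 37 were kept under every one of the 19 alternatives that gave them a value. For 18 of the 37 another probe set of the gene was above the filter, and in 17 all such probe sets had the same sign, the exception being Adam15 between the hypertrophic and the round layer. Only signs were compared, so values near 0 counted as the same. Such values were 0.02 for a probe set of Mmp16 (hypertrophic minus round) and 0.005 for a probe set of Adam10 (hypertrophic minus flat).

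Genes that work with these enzymes were read from lists, to be set against the shares of all genes called in each comparison. Of all genes tested, 8.39% rose and 8.64% fell from round to flat, and 12.4% rose and 12.7% fell from round to hypertrophic. The counts of the lists were not tested against these shares. The Adamts-like genes, which encode matrix proteins without a protease domain, fell in 2 of 6 cases from round to flat and in 5 of 6 from round to hypertrophic, with medians of -0.66 and -1.02. Adamtsl4 fell by 1.25 ± 0.14 from round to flat (adjusted p = 9.27e-05) and fell by 2.14 ± 0.14 from round to hypertrophic (adjusted p = 5.11e-07), and Thsd4, also called Adamtsl6, fell by 1.78 ± 0.23 from round to flat (adjusted p = 0.000261) and also from round to hypertrophic (adjusted p = 5.26e-05). Adamtsl2 fell by 1.13 ± 0.28 from round to hypertrophic (adjusted p = 0.0107). Of 6 other tested metalloproteinases 5 rose and 1 fell in the hypertrophic against the round layer. Phex, an endopeptidase of bone cells, rose by 3.49 ± 0.19 (adjusted p = 1.15e-07) and Pappa, which cuts Igf-binding proteins, by 1.04 ± 0.18. Its relative Pappa2 fell by 3.15 ± 0.23 (adjusted p = 1.26e-06).

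Among 7 tested activators, Pcsk6, a convertase, rose by 0.68 ± 0.19 from round to flat and by 1.29 ± 0.19 from flat to hypertrophic (adjusted p = 0.0247 and 0.00102), and Plaur, the urokinase receptor, was 0.55 ± 0.17 higher in the hypertrophic than in the round layer. Of 9 tested other inhibitors and regulators, 3 fell and 1 rose in the hypertrophic against the round layer. Of all genes 12.7% fell and 12.4% rose there. Reck, a membrane-anchored inhibitor, fell by 1.15 ± 0.14 (adjusted p = 7.45e-05), A2m, a plasma protease trap, by 1.13 ± 0.32, and Tfpi2 rose by 0.94 ± 0.20. Of 17 tested matrix substrates 4 rose and 8 fell in the same comparison. Col10a1 rose by 6.50 ± 0.36, Ibsp, bone sialoprotein, rose by 3.52 ± 0.26, and Fmod, fibromodulin, fell by 2.69 ± 0.19. Acan, the substrate of the aggrecanases, fell by 1.21 ± 0.16 and is named outside the rule of size, after its value was seen.

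Of 16 tested membrane proteins known to be shed, 3 rose and 4 fell from the round to the hypertrophic layer. Of all genes 12.4% rose and 12.7% fell there. Cdh2, N-cadherin, rose by 3.51 ± 0.19, and the Egf receptor ligands Hbegf and Btc fell, with log2 differences of -2.49 ± 0.15 and -2.28 ± 0.38. Of 5 tested tetraspanins that bind Adam10, Tspan17 and Tspan14 rose by 1.52 ± 0.20 and 0.86 ± 0.17. Of 12 tested transcription factors 4 rose and 4 fell, beside the same shares of all genes. Sp7, the osteoblast factor, rose by 3.33 ± 0.23 and Runx3 by 2.42 ± 0.25, and Fos, a subunit of AP-1, fell by 1.29 ± 0.19.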

How the data were processed

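Per the labels' protocols, between 2.7 and 4.6 µg of DNase-treated total RNA per sample was labelled for Affymetrix mouse arrays. The authors deposited MAS5 signals, linear intensity values made with Expression Console per the submitters' processing notes. The number of arrays, 3 per layer, limits the precision, and genome build and probe annotation were not given in the sources used here. Of 45037 non-control probe sets, the platform table names 1 gene for 34945, several for 932 and none for 9160, and 34741 of those with 1 gene matched the RefSeq table.

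Signals were analysed as log2(signal + 26), 26 being the 20th percentile of all values. The fit used limma 3.58.1 (R 4.3.3) with layer terms and litter as a fixed block (eBayes with trend, Benjamini-Hochberg per comparison). It was tried on simulated data for flat minus round, where not all changed genes were recovered. The simulated data held no litter effects, so they do not test the block. The pairing comes from the design text, by which each sample came from 1 litter and the triplicates were 3 litters. It was checked on the data: deviations of same-litter arrays correlated at r = 0.167 to 0.517 over 9 pairs and those of different litters at -0.434 to 0.0815 over 18. The 19 alternatives were no block, pseudocounts of 6.5 and 104, median centring, quantile normalization, no filter, a stricter filter (9.085), the mean of all probe sets, no trend, leaving out 2 arrays together, and leaving out each array. Named were the Timp genes, the members with a call in any comparison, a fixed set of well-known members, and in each list up to 3 genes with the largest called differences in a comparison, besides Acan. Members and lists were chosen with earlier results of these data known. Detection calls were not used.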

Additional observations from a re-analysis of the deposited data

How the results depend on the processing

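No called difference of a member reversed under the 19 alternatives, and 20 of 37 calls were lost under at least 1. The numbers of members called per comparison were, leaving out 1 array at a time, 4 to 7 higher and 2 to 5 lower (flat minus round), 5 to 9 and 1 to 2 (hypertrophic minus flat), and 7 to 15 and 3 to 7 (hypertrophic minus round), with 16 to 19 by the F test. All genes called numbered 1225 to 1956, 591 to 1658 and 1770 to 2924. With no replicate block, members called were 2 lower (flat minus round), 5 higher (hypertrophic minus flat) and 3 lower (hypertrophic minus round), and 935, 553 and 1824 genes were called in all. The block changed 12 of the 37 calls of members. Members lower in hypertrophic minus flat numbered 0 with the stricter filter or the mean of probe sets, 2 with no trend and 4 without the flat array of litter 3 and the round array of litter 1. Those lower in hypertrophic minus round numbered 3 with the stricter filter. Among the results with a call under any setting, signs turned for 4 differences, none of them called in the fit reported: Adam10, flat minus round, was 0.30 and Adamts10, hypertrophic minus flat, 0.0138 with the mean of probe sets, and, leaving out 1 array at a time, Timp1, flat minus round, ran from -0.0729 (without round 2) to 0.31, and Mmp2, hypertrophic minus flat, from -0.36 to 0.0308 (without flat 2). The cause was not tested. Centring arrays on their medians gave medians over all genes of -0.07, 0.07 and 0.02 in the 3 comparisons and kept all 37 calls. Dim genes near the added 26, such as Adamts18 and the members below the filter, are limited by signal over background.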
